A study of Mus musculus with 4 samples.

Results

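The genes described here carry out the DNA damage checkpoint and DNA repair in mouse B16F10 melanoma cells. They were 32 genes chosen by name for these roles, and 31 of them were measured, out of 17097 genes compared. Xrcc2, a homologous recombination gene, had no probe set annotated to it alone and was not analysed here. A gene with several probe sets of its own was read by its brightest one. B16F10 is a pigmented mouse melanoma line of C57BL/6 origin. Cells of 2 samples received 2 µM plumbagin, a plant naphthoquinone that can redox cycle, for 24 h (plumbagin 1 and plumbagin 2). Cells of the other 2 samples received MilliQ water, which is 0 µM plumbagin, for the same 24 h (control 1 and control 2, labelled untreated control). Each sample was hybridised to 1 Affymetrix mouse array, and the values were deposited on a log2 scale. The labels do not say whether samples of 1 group were separate cultures, so the tests measure the spread between these samples, which may be technical.

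Array medians lay between 4.32 and 4.39. The 18 hybridisation spike-in probe sets averaged 9.58 on plumbagin 1 against 8.46 to 8.77 on the others. Plumbagin 1 therefore stood apart. Where leaving it out turned a member's difference or moved it by a large part of its size, the value without it is given beside the gene. For genes outside the members that value is not given. A background level of 5.05 was set at the 95th percentile of 41 odorant receptor genes, and 8637 of 17097 genes (50.5%) had a mean above it. All 8 melanocyte markers lay between 10.6 and 12.4 on every array. Of 19 markers of leukocytes, keratinocytes, fibroblasts and endothelium, 2 had a mean above background, Cd3e and Kdr. With 2 arrays per group, the number of arrays limits the precision of every value.

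DNA lesions are read by a few large kinases and mended by separate pathways. ATM is recruited to double-strand breaks by the MRE11, RAD50 and NBN complex, and ATR to stretches of single-stranded DNA at stalled forks; both pass the signal to the kinases CHEK1 and CHEK2. Breaks are rejoined by the Ku proteins or copied from the sister chromatid by homologous recombination, in which BRCA1, BARD1 and BRCA2 take part. The Fanconi anaemia proteins unhook crosslinks between strands, mismatch repair corrects replication errors, and base excision repair removes single damaged bases, including the oxidised guanine that redox-cycling quinones can produce. Many of these genes are transcribed mainly in S phase, under E2F factors.

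The promoters of 7 members are shown as examples. Atm and Atr lay higher and Ogg1 lower in both plumbagin samples, and Brca1 and Ung differed most between samples of the same treatment. Brca2 and Chek2 held an E2F word, as did Bard1 and Xrcc6, whose promoters are not shown. Each stretch is the 250 bases before the gene's start, 5′ to 3′ on the gene's strand, from RefSeq's table of build GRCm38.p6. Capitals mark E2F words or CCAAT boxes on either strand.
Atm promoter, chr9:53536672-53536921, minus strand: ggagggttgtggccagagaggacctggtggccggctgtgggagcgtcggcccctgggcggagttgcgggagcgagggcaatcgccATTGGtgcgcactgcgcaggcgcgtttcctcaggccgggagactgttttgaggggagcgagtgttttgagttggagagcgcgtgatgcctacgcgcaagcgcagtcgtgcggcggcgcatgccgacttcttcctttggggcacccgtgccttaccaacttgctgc
Atr promoter, chr9:95857347-95857596, plus strand: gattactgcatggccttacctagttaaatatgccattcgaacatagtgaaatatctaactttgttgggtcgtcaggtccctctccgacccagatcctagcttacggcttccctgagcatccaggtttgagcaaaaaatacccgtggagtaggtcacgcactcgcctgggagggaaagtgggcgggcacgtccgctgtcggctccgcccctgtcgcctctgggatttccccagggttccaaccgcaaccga
Ogg1 promoter, chr6:113326726-113326975, plus strand: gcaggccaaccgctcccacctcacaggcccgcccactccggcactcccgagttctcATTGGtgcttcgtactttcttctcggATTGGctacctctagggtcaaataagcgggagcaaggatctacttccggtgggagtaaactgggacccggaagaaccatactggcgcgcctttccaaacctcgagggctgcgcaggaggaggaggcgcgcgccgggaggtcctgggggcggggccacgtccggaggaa
Brca1 promoter, chr11:101551956-101552205, minus strand: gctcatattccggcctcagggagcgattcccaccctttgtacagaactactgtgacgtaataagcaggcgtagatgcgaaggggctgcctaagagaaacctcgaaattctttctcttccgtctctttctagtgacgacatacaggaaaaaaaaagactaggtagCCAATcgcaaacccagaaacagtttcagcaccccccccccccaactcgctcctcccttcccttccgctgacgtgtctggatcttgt
Ung promoter, chr5:114130185-114130434, plus strand: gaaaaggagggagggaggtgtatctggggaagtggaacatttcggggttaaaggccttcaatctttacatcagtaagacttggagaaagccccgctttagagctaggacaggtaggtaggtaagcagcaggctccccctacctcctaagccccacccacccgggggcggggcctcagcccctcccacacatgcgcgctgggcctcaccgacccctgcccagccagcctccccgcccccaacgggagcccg
Brca2 promoter, chr5:150522371-150522620, plus strand: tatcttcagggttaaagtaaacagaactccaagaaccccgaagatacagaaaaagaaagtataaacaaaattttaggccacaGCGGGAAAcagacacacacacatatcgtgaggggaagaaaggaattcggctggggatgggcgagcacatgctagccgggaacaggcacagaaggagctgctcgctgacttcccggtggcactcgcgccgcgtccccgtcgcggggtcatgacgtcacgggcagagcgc
Chek2 promoter, chr5:110839733-110839982, plus strand: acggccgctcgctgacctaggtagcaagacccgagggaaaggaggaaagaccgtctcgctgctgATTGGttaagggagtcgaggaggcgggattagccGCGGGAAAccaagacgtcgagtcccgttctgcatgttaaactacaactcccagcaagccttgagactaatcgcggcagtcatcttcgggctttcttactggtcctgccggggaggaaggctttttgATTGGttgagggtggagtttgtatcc
The E2F words searched were TTTCCCGC, TTTGGCGC, TTTCGCGC and TTTGCCGC on both strands, and they do not overlap the CCAAT search. Of 25 measured members with a promoter in that table, 4 (16.0%) held an E2F word in this window, namely Bard1, Brca2, Chek2 and Xrcc6, against 1.86% of all 32851 promoters. A CCAAT box, searched as CCAAT on both strands, was present in 16 of the 25 (64.0%), against 33.8% of all promoters. A member was counted where any promoter listed for it held the word, while the shares of all promoters count each promoter once. The shares are therefore not on the same unit, and no test was made between them. These are matches of letters and not shown binding sites. The treatment differences of the 4 genes with an E2F word were -0.01 for Bard1, 0.23 for Brca2, -0.10 for Chek2 and -0.21 for Xrcc6.

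No repair or checkpoint gene passed the test between plumbagin and control. In the limma fit over all 17097 genes, 0 of 31 members had an adjusted p under 0.05, and 0 genes in all did (0% of those tested). At an unadjusted p under 0.05, 1 member was lower with plumbagin (Ogg1) and 0 were higher, where 0.731% of all genes were lower and 0.257% higher. The means were lower with plumbagin in 21 members and higher in 10. Lower means were found in 9424 of all 17097 genes and in 5619 of the 8637 above background. The members' median difference on the log2 scale, plumbagin minus control, was -0.06, against -0.01 over all genes and -0.05 over the genes above background. The groups separated in 6 members. Ogg1, Xrcc1, Fancc and Chek2 (12.9% of the 31) were lower on each plumbagin array than on each control array, where 15.2% of all genes and 18.3% of the genes above background were. Atm and Atr (6.45%) were higher on each plumbagin array, where 10.2% of all genes and 5.66% of the genes above background were. These shares were near or below the background. In RNA from whole cultures, fewer cells in a phase of the cycle and less RNA per cell cannot be told apart.

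**Figure D1:**
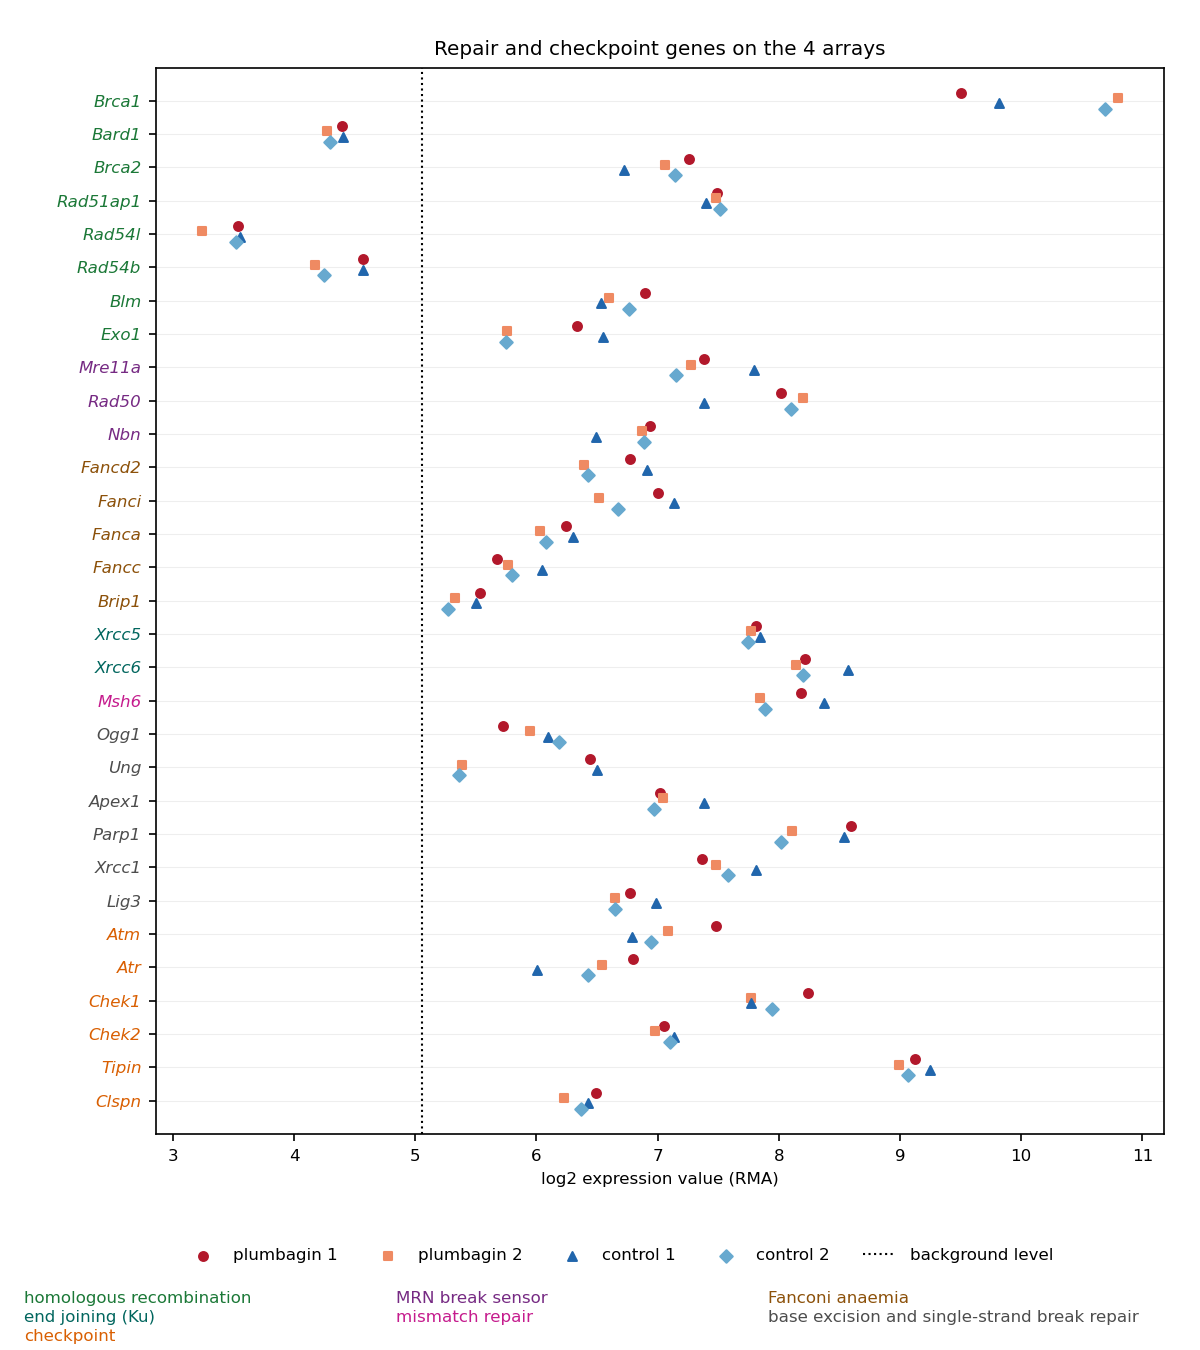
Log2 expression value (horizontal axis) of the 31 measured members, coloured by class, on plumbagin 1 and 2 (red circle, orange square) and control 1 and 2 (blue triangle, light blue diamond), 1 point per array. The dotted line is the background level of 5.05; 28 members have a mean above it and Bard1, Rad54b and Rad54l do not.

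The checkpoint class held the members with the largest positive differences, the 2 apical kinases. Atr, the kinase that answers replication stress, had log2 values of 6.80 and 6.54 on plumbagin 1 and 2, against 6.00 and 6.43 on control 1 and 2. The groups did not overlap, but plumbagin 2 and control 2 were close. The difference was 0.46 ± 0.19 (log2, SE, n = 2 per group), 1.37-fold, with a 95% interval from -0.04 to 0.96 (limma adjusted p = 1). Atm, the kinase that answers double-strand breaks, had 7.49 and 7.08 on the plumbagin arrays, against 6.79 and 6.94 on the controls. Its groups did not overlap either, with plumbagin 1 well above the other 3 arrays. The difference was 0.42 ± 0.16 (1.34-fold, 95% interval -0.03 to 0.86, adjusted p = 1).

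Both kinase differences came mostly from the arrays numbered 1. Plumbagin 1 minus control 1 was 0.80 for Atr and 0.69 for Atm, while plumbagin 2 minus control 2 was 0.12 and 0.14 in the same order of genes. Without plumbagin 1 the differences were 0.33 for Atr and 0.22 for Atm, and without control 1 they were 0.25 and 0.34. The second Atm probe set gave the same picture, with 6.96 and 6.66 on the plumbagin arrays against 6.25 and 6.56 on the controls. The other 2 Atr probe sets had means below background, and their differences were 0.48 and 0.29.

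The kinases downstream did not follow one direction. Chek1, which ATR activates to hold S phase and G2, had 8.24 and 7.77 on the plumbagin arrays, against 7.77 and 7.95 on the controls, so the groups overlapped and plumbagin 1 alone was high. Its difference was 0.15 ± 0.19, and -0.08 without plumbagin 1. Chek2, which ATM activates, had 7.06 and 6.98 with plumbagin, against 7.14 and 7.10 in controls. The Chek2 difference was -0.10 ± 0.08, and -0.14 without plumbagin 1. Both plumbagin values lay below both controls, but all 4 values fell within 0.16 of each other. Tipin, a fork protection partner of TIMELESS, had 9.12 and 8.99 with plumbagin, against 9.25 and 9.07 in controls. Clspn, the adaptor between ATR and CHEK1, had 6.50 and 6.23 with plumbagin, against 6.43 and 6.37 in controls. In both genes the groups overlapped, with differences of -0.10 ± 0.11 for Tipin and -0.04 ± 0.12 for Clspn. Without plumbagin 1 these were -0.17 for both. The class had 3 members higher and 3 lower, with a median of 0.06.

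The break-sensing MRN complex had 2 subunits higher and 1 lower by their means, and control 1 stood farthest from the other arrays in each. Rad50, the structural maintenance of chromosomes-like ATPase of the complex, had 8.02 and 8.20 with plumbagin, against 7.38 and 8.10 in controls. Control 1 was low by itself, and the other 3 arrays lay within 0.18 of each other. The difference of 0.37 ± 0.26 became 0.01 without control 1 and 0.46 without plumbagin 1. Nbn, which brings ATM to the complex, had 6.94 and 6.87 with plumbagin, against 6.49 and 6.89 in controls, and its difference of 0.21 ± 0.16 became 0.02 without control 1. Mre11a, the nuclease, ran the other way, with 7.38 and 7.27 with plumbagin, against 7.80 and 7.15 in controls. Control 1 was here the highest array, and the difference was -0.15 ± 0.24, and -0.20 without plumbagin 1.

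**Figure D2:**
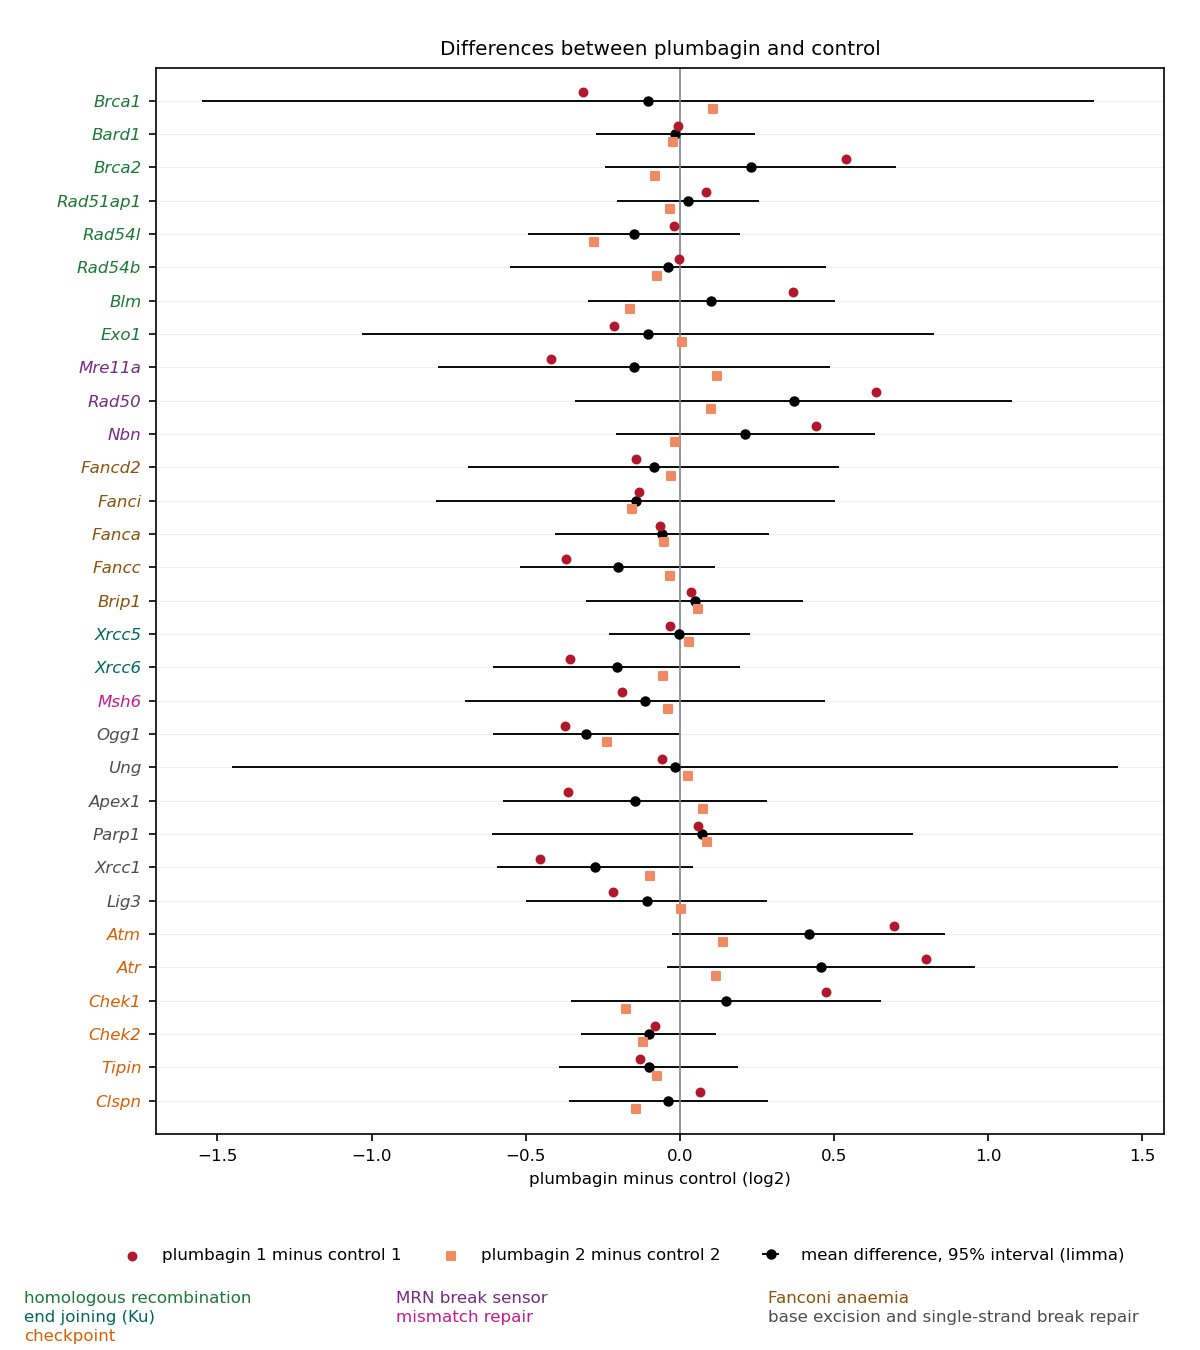
Difference between plumbagin and control on the log2 scale (horizontal axis) for each of the 31 members. Black points are the mean differences with their 95% limma intervals, red circles plumbagin 1 minus control 1 and orange squares plumbagin 2 minus control 2; Atr (0.46) and Atm (0.42) lie farthest right, Ogg1 (-0.30) farthest left, and the red circles spread wider than the orange squares.

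In the homologous recombination class no member's groups separated. Brca1, a ubiquitin ligase that starts recombination, had 9.50 and 10.80 with plumbagin, against 9.82 and 10.69 in controls. The arrays numbered 1 were low and those numbered 2 high in both groups, so the difference of -0.10 ± 0.54 had a 95% interval from -1.55 to 1.34. Without plumbagin 1 it was 0.54. Brca2, which acts after the break ends are cut back, had 7.26 and 7.06 with plumbagin, against 6.72 and 7.14 in controls, a difference of 0.23 ± 0.18. Control 1 was again the low array, and the difference was 0.02 without it and 0.13 without plumbagin 1. Blm, the helicase that dissolves crossed strands, had 6.90 and 6.60 with plumbagin, against 6.53 and 6.76 in controls. Its sign turned without plumbagin 1, to -0.05. Exo1, the exonuclease that lengthens the cut back end, had 6.34 and 5.76 with plumbagin, against 6.55 and 5.75 in controls. This gene split by number, high on the arrays numbered 1 and low on those numbered 2, with a difference of -0.10 ± 0.34 between the treatments, and -0.39 without plumbagin 1.

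Rad51ap1, which promotes strand exchange, varied least in this class among the members above background, with 7.49 and 7.48 with plumbagin, against 7.40 and 7.51 in controls. Its difference was 0.03 ± 0.09, and -0.11 when its 4 probe sets were averaged. Bard1, the partner of BRCA1, and the translocases Rad54b and Rad54l had means below the background level, so little can be read from them. Bard1 had 4.40 and 4.27 with plumbagin, against 4.40 and 4.29 in controls. The differences of Rad54b and Rad54l were -0.04 ± 0.19 and -0.15 ± 0.13. Without plumbagin 1 they were -0.24 for Rad54b, -0.30 for Rad54l and -0.08 for Bard1. Over the 8 measured members the median was -0.03, with 3 higher and 5 lower.

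The Fanconi anaemia genes had a median of -0.08, where the genes above background had -0.05. Of the 5, 4 were lower with plumbagin by small amounts in both numbers, as were 3175 of 8637 genes above background. Fancd2 and Fanci encode the pair that is ubiquitinated at crosslinks. Fancd2 had 6.77 and 6.40 with plumbagin, against 6.91 and 6.42 in controls, and Fanci had 7.00 and 6.52, against 7.14 and 6.67. In the probe sets used, both genes were higher on the arrays numbered 1 than on those numbered 2, and the groups overlapped. The differences were -0.08 ± 0.22 for Fancd2 and -0.14 ± 0.24 for Fanci, and without plumbagin 1 they were -0.27 and -0.39. A second Fancd2 probe set above background had 5.69 and 5.86 with plumbagin, against 6.19 and 5.97 in controls. Its groups did not overlap, its difference was -0.31, and plumbagin 1 minus plumbagin 2 was -0.16. A further Fancd2 probe set, below background, differed by 0.06. Fanca, a subunit of the core ligase complex, had 6.24 and 6.03 with plumbagin, against 6.30 and 6.08 in controls, a difference of -0.06 ± 0.13 that was -0.16 without plumbagin 1. Fancc, another core subunit, had 5.67 and 5.76 with plumbagin, against 6.04 and 5.80 in controls. The Fancc groups did not overlap, though plumbagin 2 and control 2 were only 0.03 apart. The difference was -0.20 ± 0.12, -0.16 without plumbagin 1 and -0.08 without control 1. Brip1, a helicase bound by BRCA1, was the 1 member of the class with a higher mean, by 0.05 ± 0.13, and its difference was -0.06 without plumbagin 1 and -0.07 without control 2.

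Ku and mismatch repair were represented by 3 genes. Xrcc5, which encodes Ku80, had 7.81 and 7.77 with plumbagin, against 7.84 and 7.74 in controls. It was the steadiest member, with a difference of -0.0018 ± 0.08 and a 95% interval from -0.23 to 0.23; without plumbagin 1 the difference was -0.02. Xrcc6, which encodes Ku70, had 8.21 and 8.15 with plumbagin, against 8.57 and 8.20 in controls, a difference of -0.21 ± 0.15. Control 1 was high and the other arrays close together, and the difference was -0.02 without control 1. Msh6, which takes part in finding single mismatches, had 8.19 and 7.85 with plumbagin, against 8.37 and 7.88 in controls, a difference of -0.11 ± 0.22, and -0.28 without plumbagin 1. Its values, too, were higher on the arrays numbered 1 in both groups.

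Base excision and single-strand break repair had the lowest class median, -0.13. Of its 6 members 5 were lower by their means, where 5619 of 8637 genes above background were. The class median was 0.061 without control 1 and -0.31 without control 2. Ogg1, the glycosylase that removes oxidised guanine, had 5.73 and 5.95 with plumbagin, against 6.10 and 6.19 in controls. Both plumbagin values lay below both controls, and plumbagin minus control was -0.37 for number 1 and -0.24 for number 2. The difference was -0.30 ± 0.11 (log2, SE, n = 2 per group), a ratio of 0.809, and the limma adjusted p was 1. It was -0.19 without plumbagin 1 and lay between -0.19 and -0.42 with any 1 array left out. The second Ogg1 probe set, just above background, had 5.07 and 5.05 with plumbagin, against 5.28 and 5.23 in controls, without overlap. Xrcc1, the scaffold of single-strand break repair, had 7.36 and 7.48 with plumbagin, against 7.81 and 7.58 in controls. Its groups did not overlap either. The difference was -0.27 ± 0.12 (0.826-fold, adjusted p = 1), -0.22 without plumbagin 1 and -0.16 without control 1.

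The other 4 genes of this pathway overlapped between the groups. Ung, the glycosylase that removes uracil, had 6.44 and 5.39 with plumbagin, against 6.50 and 5.36 in controls. It differed by about 1 log2 unit between the numbers and by -0.02 ± 0.53 between the treatments, -0.54 without plumbagin 1. Apex1, the endonuclease that cuts abasic sites, had 7.02 and 7.05 with plumbagin, against 7.38 and 6.97 in controls. Control 1 alone was high. Parp1, which marks nicks with poly(ADP-ribose), had 8.60 and 8.11 with plumbagin, against 8.54 and 8.02 in controls, a difference of 0.07 ± 0.25. It was -0.17 without plumbagin 1 and -0.06 when its 3 probe sets were averaged. Lig3, the ligase that XRCC1 carries, had 6.77 and 6.65 with plumbagin, against 6.99 and 6.65 in controls, a difference of -0.11 ± 0.14, and -0.17 without plumbagin 1.

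Set side by side, the class medians ran from -0.13 for base excision and single-strand break repair through -0.10 for Ku, -0.08 for the Fanconi genes, -0.03 for homologous recombination and 0.06 for the checkpoint to 0.21 for MRN. Msh6 alone stood for mismatch repair at -0.11. This order depended on single arrays. Without control 1 the medians were 0.061 for base excision and single-strand break repair, 0.014 for Ku, 0.088 for Fanconi and 0.0049 for homologous recombination, the lowest. The homologous recombination median was 0.10 without plumbagin 2, and 0.026 when only genes above background were tested. The order also was not the same in both numbers. Plumbagin 1 minus control 1 gave medians of -0.29 for base excision and single-strand break repair, -0.13 for Fanconi, -0.0041 for homologous recombination, 0.27 for checkpoint and 0.44 for MRN genes. Plumbagin 2 minus control 2 gave 0.01, -0.03, -0.05, -0.10 and 0.10 for the same classes in that order. The base excision class was thus lowest in number 1, and the checkpoint class in number 2. Over the 8637 genes above background the median was -0.11 in number 1 and -0.0016 in number 2. Over all 31 members, 20 were lower in number 1 and 19 in number 2, and 13 were lower and 5 higher in both. Of all 17097 genes, 9497 were lower in number 1 and 8798 in number 2, and 4951 were lower and 3707 higher in both. Of the 8637 genes above background, 5969 were lower in number 1 and 4378 in number 2. In both numbers, 3175 of these were lower and 1458 higher. The classes hold few genes that share arrays, and no test was made between them.

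**Figure D3:**
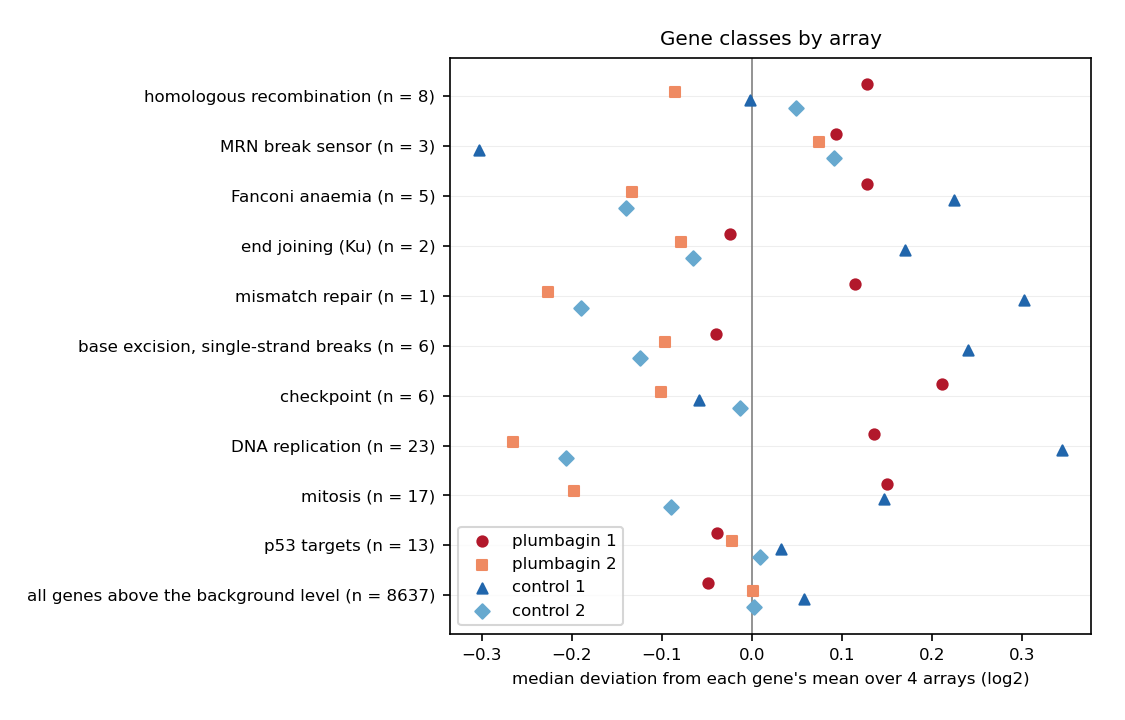
Median deviation of each gene from its own mean over the 4 arrays (horizontal axis, log2), for the classes of repair genes, 3 lists for context and all genes above background, with 1 point per array. The Fanconi, mismatch repair, DNA replication and mitosis rows have both arrays numbered 1 on the right and both numbered 2 on the left. The MRN row has control 1 alone on the left at -0.30.

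The arrays differed more by their number than by treatment. The size of number 1 minus number 2, taken over means of 2 arrays like that of the treatments, had a median of 0.17, and that of plumbagin minus control a median of 0.11, against 0.10 and 0.07 over all genes. The difference by number was the larger one in 21 of 31 members and in 10513 of 17097 genes. The standard error of the treatment difference had a median of 0.16 over the members. A first pattern was one in which both arrays numbered 1 lay above both numbered 2. It held for 17 of 31 members (54.8%), where it held for 30.0% of all genes and 28.6% of the genes above background. The largest were Ung, higher on number 1 by 1.06 with plumbagin and 1.14 in controls, and Exo1, by 0.58 and 0.80. Parp1 (0.49 and 0.52), Fanci (0.49 and 0.46), Fancd2 (0.38 and 0.49) and Msh6 (0.34 and 0.49) followed. The opposite order held for 2 members (6.45%), Brca1 and Rad50, against 18.9% of all genes and 28.2% of the genes above background. Number 1 minus number 2 was -1.30 for Brca1 with plumbagin and -0.88 in controls.

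In the second pattern control 1 was the lowest of the 4 arrays. It held for 8 members (25.8%), Brca2, Rad51ap1, Blm, Rad50, Nbn, Atm, Atr and Chek1, against 18.3% of all genes and 17.1% of the genes above background. All 8 had a mean above background. Control 1 minus control 2 was -0.72 for Rad50, -0.42 for Atr, -0.42 for Brca2 and -0.39 for Nbn. These 8 made up most of the 10 members with a higher mean under plumbagin, the others being Brip1 and Parp1. A low control 1 by construction raises the treatment difference. Of the 8, 3 also had plumbagin 2 above control 2, Atm by 0.14, Atr by 0.12 and Rad50 by 0.10. Control 1 was the highest array in 18 members (58.1%), against 35.0% of all genes and 43.2% of the genes above background. A high control 1 by construction lowers the treatment difference. Over all members the median difference was -0.06 with all arrays and 0.049 without control 1.

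**Figure D4:**
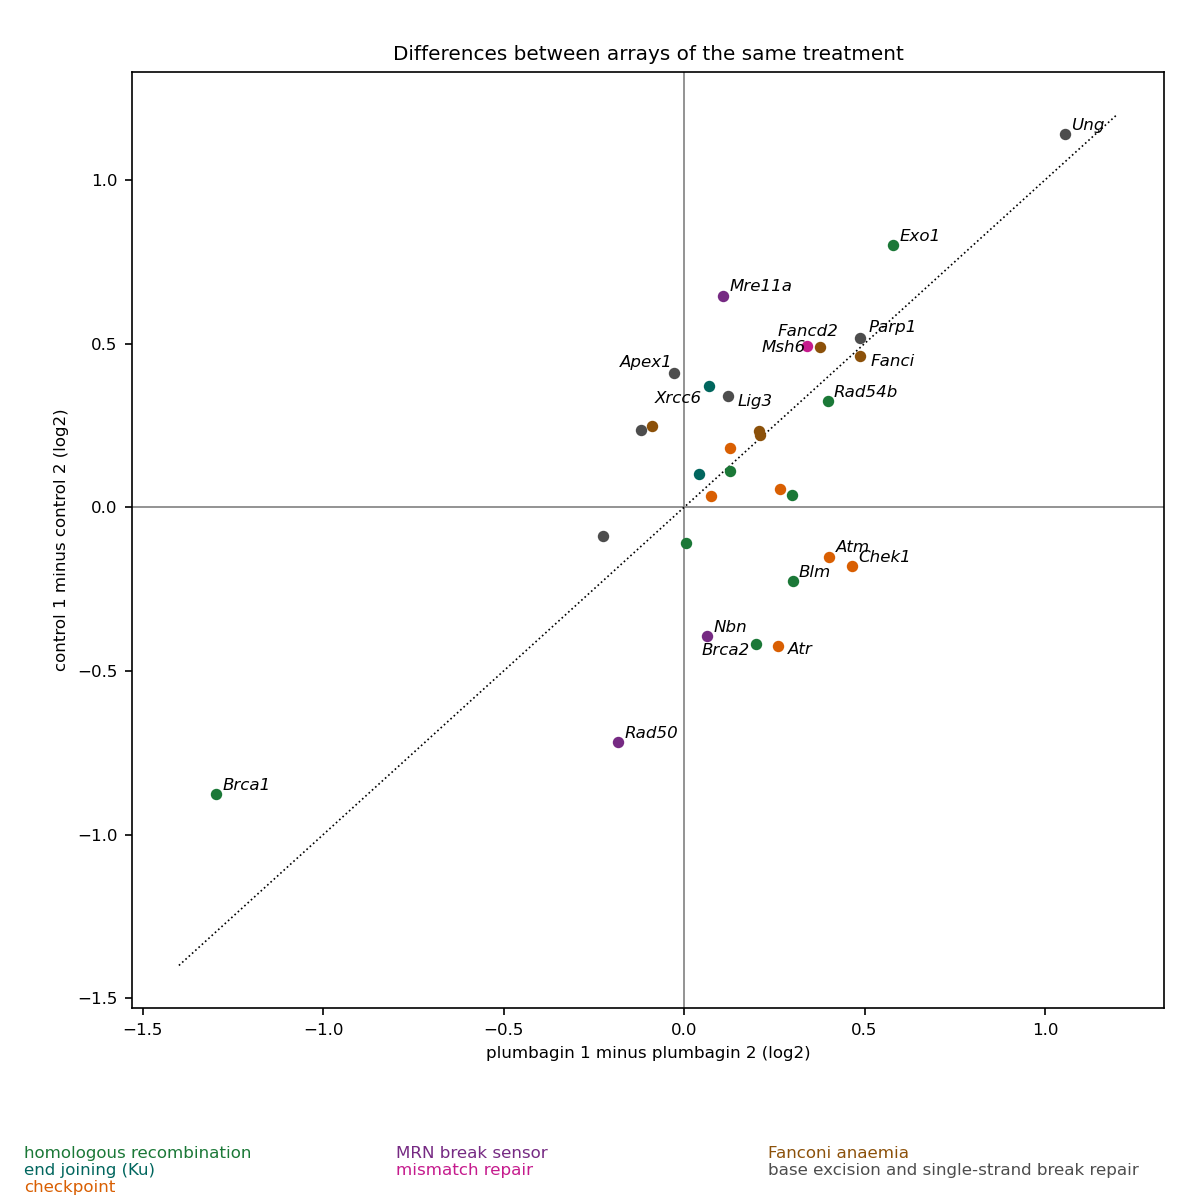
Plumbagin 1 minus plumbagin 2 (horizontal axis) against control 1 minus control 2 (vertical axis), both log2, for the 31 members coloured by class; the dotted line marks equal differences. Ung and Exo1 lie at the upper right, Brca1 at the lower left, and Rad50, Brca2, Atr and Nbn below zero on the vertical axis alone or mostly so.

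Other genes named by the lists show what accompanied these patterns. Of 23 DNA replication genes, 18 were higher on both arrays numbered 1 than on both numbered 2, with a median of 0.41 between the plumbagin samples and 0.50 between the controls. Among 17 genes of mitosis this held for 10, with medians of 0.34 and 0.24. The 13 measured p53 targets had 2 such members and 5 with the opposite order. Between plumbagin and control the replication genes had a median of -0.13 with 0 of 23 past the test, mitosis genes -0.05 with 0 of 17, and p53 targets -0.10 with 0 of 13. The share of cells in each phase of the cycle was not measured, and its part in the repair genes' spread was not tested.

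Repeated probe sets differed in how far they agreed. The members had 61 probe sets, and 16 members had more than 1. Of the 30 probe sets not used, 15 had a mean above background, and the sign of plumbagin minus control was that of the probe set used in 10 of them. The sign of number 1 minus number 2 was shared in 12 of the 15. Brca1 had 2 further probe sets above background, with 7.08 and 9.09 and with 6.67 and 8.84 on plumbagin 1 and 2, against 7.97 and 8.91 and 7.70 and 8.73 on the controls. Plumbagin 1 minus plumbagin 2 was -2.01 and -2.16 there, wider than in the probe set used. For Parp1 both further probe sets were highest on control 1 and gave negative treatment differences, -0.12 and -0.13. The Chek1 and Rad51ap1 probe sets used carry the suffix that Affymetrix gives to sets which may match more than 1 transcript family.

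**Figure D5:**
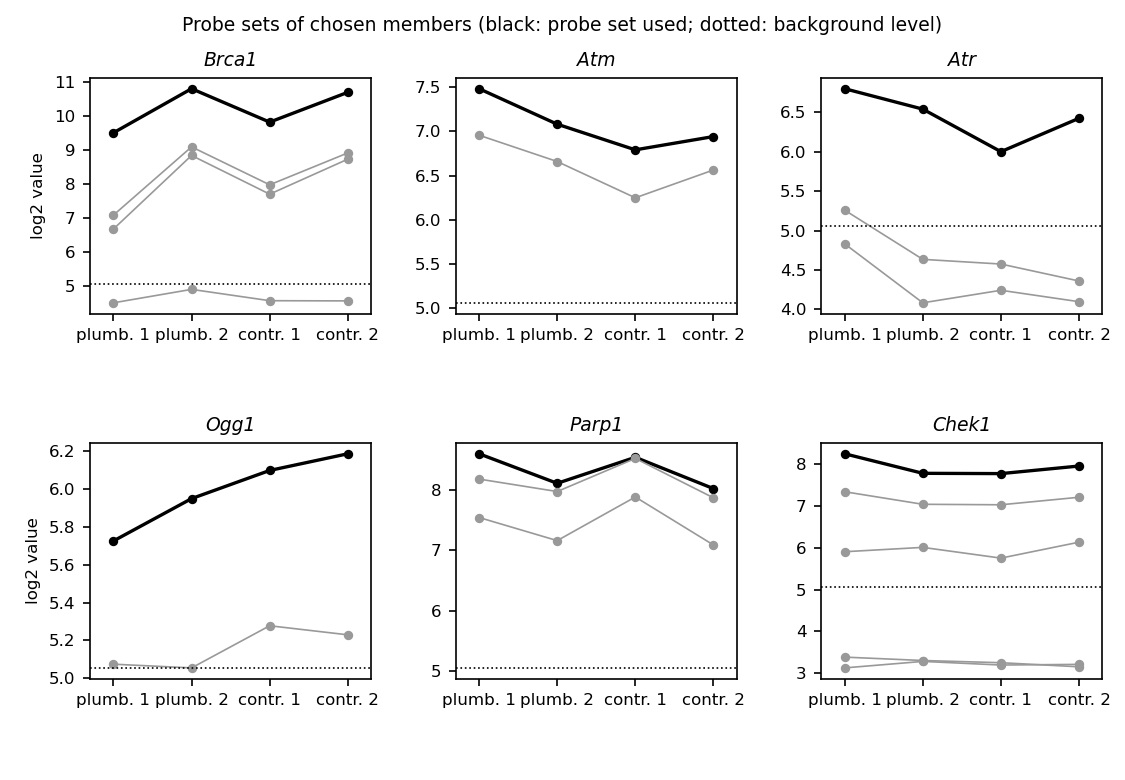
Log2 value (vertical axis) of every probe set of Brca1, Atm, Atr, Ogg1, Parp1 and Chek1 on the 4 arrays, plumbagin 1, plumbagin 2, control 1 and control 2 from left to right. The black line is the probe set used and the dotted line the background level of 5.05; 3 Brca1 probe sets dip on both arrays numbered 1, and both Atm probe sets are highest on plumbagin 1.

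Other genes of the same pathways, listed by role, gave no call either. Of 86 such genes 76 were counted as measured, and 0 passed the limma test over all genes. Among the 76 is Fscn1, taken for the listed Fan1 through a shared older symbol, so Fan1 itself was not measured. By their means 51 were lower, where 5619 of 8637 genes above background were, and 25 were higher, Fscn1 included. Their median was -0.07. Both plumbagin arrays lay below both controls in 13 (17.1%) and above them in 4 (5.26%), near the shares of the genes above background given before, 18.3% and 5.66%. Mus81, the nuclease that cuts branched DNA, had 5.46 and 5.58 with plumbagin, against 5.85 and 5.79 in controls. It was the 1 gene of the 76 with an unadjusted p under 0.05, and its difference was -0.30 ± 0.09 (limma adjusted p = 1). Ube2t, the conjugating enzyme that works on FANCD2, differed by -0.27 ± 0.10 without overlap. In the checkpoint list, H2ax, the histone phosphorylated around breaks, had 7.73 and 8.20 with plumbagin, against 8.27 and 8.32 in controls, a difference of -0.33 ± 0.18. Rad1, of the clamp that helps ATR, differed by -0.31 ± 0.14, and Rnf8, a ligase at breaks, by -0.19 ± 0.12. Plumbagin 1 minus control 1 was -0.54 for H2ax, -0.42 for Rad1 and -0.30 for Rnf8. Plumbagin 2 minus control 2 was smaller, at -0.12, -0.20 and -0.09 in the same order of genes.

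On the other side, Prkdc, the Ku-dependent kinase related to ATM and ATR, had 7.00 and 6.82 with plumbagin, against 6.63 and 6.80 in controls. The groups did not overlap, plumbagin 2 lay within 0.02 of control 2, and the difference was 0.19 ± 0.11. Rmi1, which works with BLM, differed by 0.23 ± 0.11, also without overlap. Its plumbagin minus control was 0.35 for number 1 and 0.11 for number 2. Of 6 measured end joining genes, 5 had higher means, with a median of 0.05. Higher means were found in 7673 of all 17097 genes and in 3018 of the 8637 above background. The medians of the other lists were -0.06 for homologous recombination (14 genes), -0.03 for Fanconi anaemia (13), 0.01 for mismatch repair (4), -0.11 for base excision and single-strand break repair (14), -0.11 for checkpoint (14) and -0.12 for nucleotide excision repair (11). The 13 genes counted for Fanconi anaemia include Fscn1 (difference 0.14), which stood in place of Fan1.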

How the data were processed

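Biotinylated cRNA was made from total RNA of 4 B16F10 samples, per the labels' protocols, and read on 4 Affymetrix mouse arrays. The deposited log2 values, 1 per probe set, were made by the authors with RMA, per the submitters' processing notes, which also name Affymetrix Expression Console and, as a further tool, Transcriptome Analysis Console. Versions are not given in the sources used here. Quantile normalization within RMA makes the arrays' distributions much alike, which hides a shift common to most genes. The background step of RMA compresses dim values.

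Of 45141 probe sets, 28898 carried exactly 1 gene symbol in the platform annotation, which can be out of date, and 551 carried several. For 28689 probe sets the gene number was found in RefSeq GRCm38.p6, and the symbol given there was used, whether or not it had changed. RefSeq GRCm38.p6 was also used for promoters. Each gene took its probe set with the highest mean, with no filter. Plumbagin and control were compared by limma 3.58.1 (lmFit, then eBayes) under R 4.3.3 across all 17097 genes, two-sided, with Benjamini-Hochberg adjustment over all genes and a threshold of 0.05. An exact permutation of 2 against 2 arrays cannot pass that threshold. All members were named; of other pathway genes, those named are among the 3 with the smallest p in their list. The members and lists were chosen with earlier results of these data known. Alternatives were other probe set rules, filters on dim genes, other normalizations, a trended and a robust eBayes, a replicate block, and the fit without each array in turn, in which the lone array takes its spread from the other group.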

Additional observations from a re-analysis of the deposited data

How the results depend on the processing

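Under all 14 alternatives 0 genes and 0 members passed the limma test; the smallest adjusted p of a member was 0.792, without plumbagin 2. At an unadjusted p under 0.05 the fits counted 125 lower and 44 higher genes as reported, and 22 to 750 lower and 3 to 421 higher in the alternatives. The labels give both groups the numbers 1 and 2 but do not say what samples with equal numbers share, and only 2 pairs exist. Same-numbered deviations correlated at 0.536 over 17097 genes and at 0.618 over the 8637 above background. Over the 31 members, control 1 minus control 2 correlated with plumbagin 1 minus plumbagin 2 at 0.639. With the replicate block 0 genes and 0 members were called, with 317 lower and 117 higher genes unadjusted. With all 4 arrays kept, the sign turned in 5 members: with probe sets averaged, Rad51ap1 was -0.11 and Parp1 -0.06, and under quantile normalization and cyclic loess Xrcc5 was 0.063 and 0.066, Ung 0.026 and 0.025 and Clspn 0.011 and 0.018. The MRN median was -0.0013 with every probe set on its own. Leaving out 1 array moved the members' median from -0.17 (without control 2) to 0.057 (without plumbagin 2), MRN from 0.015 (without control 1) to 0.41 (without control 2), Fanconi from -0.32 (without control 2) to 0.10 (without plumbagin 2) and checkpoint from -0.11 (without plumbagin 1) to 0.24 (without plumbagin 2). The same range was 0.061 (without control 1) to -0.31 (without control 2) for base excision, 0.014 to -0.22 for Ku with the same arrays left out, and -0.063 (without plumbagin 1) to 0.10 (without plumbagin 2) for homologous recombination, whose median was 0.026 under both filters on dim genes. In 20 members the sign turned. Differences ran from the fit without plumbagin 2 to the fit without plumbagin 1 in Brca1 (-0.75 to 0.54). Differences ran from the fit without plumbagin 1 to the fit without plumbagin 2 in Bard1 (-0.078 to 0.049), Rad54l (-0.30 to 0.0013), Rad54b (-0.24 to 0.16), Blm (-0.048 to 0.25), Fanci (-0.39 to 0.10), Chek1 (-0.083 to 0.38), Clspn (-0.17 to 0.095). Differences ran from the fit without control 1 to the fit without control 2 in Rad51ap1 (-0.029 to 0.081). Differences ran from the fit without control 2 to the fit without control 1 in Exo1 (-0.50 to 0.30), Mre11a (-0.47 to 0.17), Fancd2 (-0.33 to 0.16), Fanca (-0.17 to 0.053), Brip1 (-0.068 to 0.16), Xrcc5 (-0.052 to 0.049), Msh6 (-0.36 to 0.13), Ung (-0.59 to 0.55), Apex1 (-0.35 to 0.059), Parp1 (-0.19 to 0.33), Lig3 (-0.28 to 0.063). The other 11 members, Atm, Atr, Brca2, Chek2, Fancc, Nbn, Ogg1, Rad50, Tipin, Xrcc1 and Xrcc6, kept their sign in each setting run. For single members, the setting with every probe set on its own read only the probe set used, so it could turn no sign. The second probe sets of Rad50 (-0.01) and Xrcc6 (0.04), with means below background, had the other sign. Further probe sets of Atm, Atr, Fancc and Ogg1 had the same sign. The causes were not tested. Bard1, Rad54b and Rad54l have means below background, so signal limits what they can show.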
